A study of Mus musculus with 3 samples.

Results

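Mitosis and cytokinesis genes are the 44 genes followed here, from the cyclin and kinase that start mitosis to the proteins that cut the cell in 2 at its end. They were chosen by name as a list of textbook regulators, and 42 of them had a probe set annotated to that gene alone, out of 17097 genes with such a probe set on the array. The other 2, Ccnb1 (cyclin B1) and Nuf2 (a kinetochore subunit), were not analysed here. A gene is given by its brightest probe set, the one with the highest mean over the arrays.

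The cells were adult mouse bone-marrow mesenchymal progenitors, the stromal cells that found fibroblast colonies, FACS-sorted and labelled PaS+, from C56Bl/6 animals aged 8 weeks, and cultured for 7 days in 1% oxygen. Once colonies appeared, a lentivirus brought in a short hairpin RNA (shRNA) overnight, and RNA was taken 4 days later. One array held cells given shHIF-2a, 1 held cells given shHIF-1a and 1 held cells given the control hairpin shCTR. All 3 cultures thus shared the low oxygen, the MesenCult medium and the lentivirus, and neither the hairpin sequences nor the numbers of animals or cultures are given in the labels. With 1 array per hairpin the spread between cultures is unknown, no test could be run, and counts past a 2-fold difference take its place.

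A cell copies its DNA in S phase and then divides in mitosis, driven by the kinase Cdk1 with cyclins A and B. Kinetochores attach the chromosomes to the spindle, a checkpoint holds anaphase back until all are attached, and the anaphase-promoting complex then marks securin and cyclins for destruction. The genes for these proteins are switched on together late in the cycle and are quiet in resting cells, so their summed RNA is widely used as a sign of dividing cells. In a culture measured in bulk, more dividing cells and more RNA per dividing cell cannot be told apart.

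Values are RMA intensities on a linear scale, over 45141 probe sets. Signal over background stands in for depth: the brightest of 23 nonspecific control probe sets read 3.47, on the control array, and this is called the nonspecific level. A value under it was raised to it before log2, so that a fold against such a value is a lower bound and is written "at least". Of the targeted genes, Hif1a did not tell the hairpins apart: it read 332.4 on the shHIF-2a array, 332.4 on the shHIF-1a array and 352.1 on the control array. Epas1, which encodes HIF-2α, read 3.21 on the shHIF-2a array, under the nonspecific level, 9.44 on the shHIF-1a array and 5.09 on the control array, at least 1.47-fold lower on the shHIF-2a array than on control. The arrays are therefore called HIF-2α-labelled and HIF-1α-labelled, and every direction rests on those labels.

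Array-wide values that differed between the arrays are these. The 12 hybridisation controls above the nonspecific level on all arrays were dimmer on the HIF-2α-labelled array, by a median log2 difference of −1.02 from control and −1.09 from the HIF-1α-labelled array. The upper quartile of all probe sets was 13.9 on the HIF-2α-labelled array, 13.0 on the HIF-1α-labelled array and 9.81 for the control array. The ratio of the 3′ to the 5′ actin probe set, a sign of RNA integrity, was 1.52 on both hairpin arrays and 1.38 on the control array. Equal values were common over all genes, 26.8% of genes for the HIF-2α-labelled array and control and 50.4% for the 2 hairpin arrays, whereas 1 and 2 of the 42 genes were equal. The part of these array-wide differences in the results was not tested.

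Mitosis and cytokinesis genes were higher on the HIF-2α-labelled array than on either other array. Of the 42 genes, 40 had their highest value there, against 25% of all genes, and none was highest on the HIF-1α-labelled or the control array. The 40 include Kif11 and Cdc25c, which were under the nonspecific level on every array. All 38 genes above that level somewhere were highest there, against 42.1% of 8917 such genes. For 5 of the 38 this follows from passing the level there alone, so they add nothing on direction. A 2-fold or larger excess on the HIF-2α-labelled array was seen for 24 of 42 against control (3.96% of all genes) and 22 of 42 against the HIF-1α-labelled array (0.614% of all genes). None of the 42 was 2-fold lower in either comparison (0.269% and 0.433% of all genes). The HIF-1α-labelled array had 5 of 42 past 2-fold over control (2.1% of all genes) and none lower (0.0292%). The 3 comparisons share arrays, so they are not independent of one another.

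**Figure D1:**
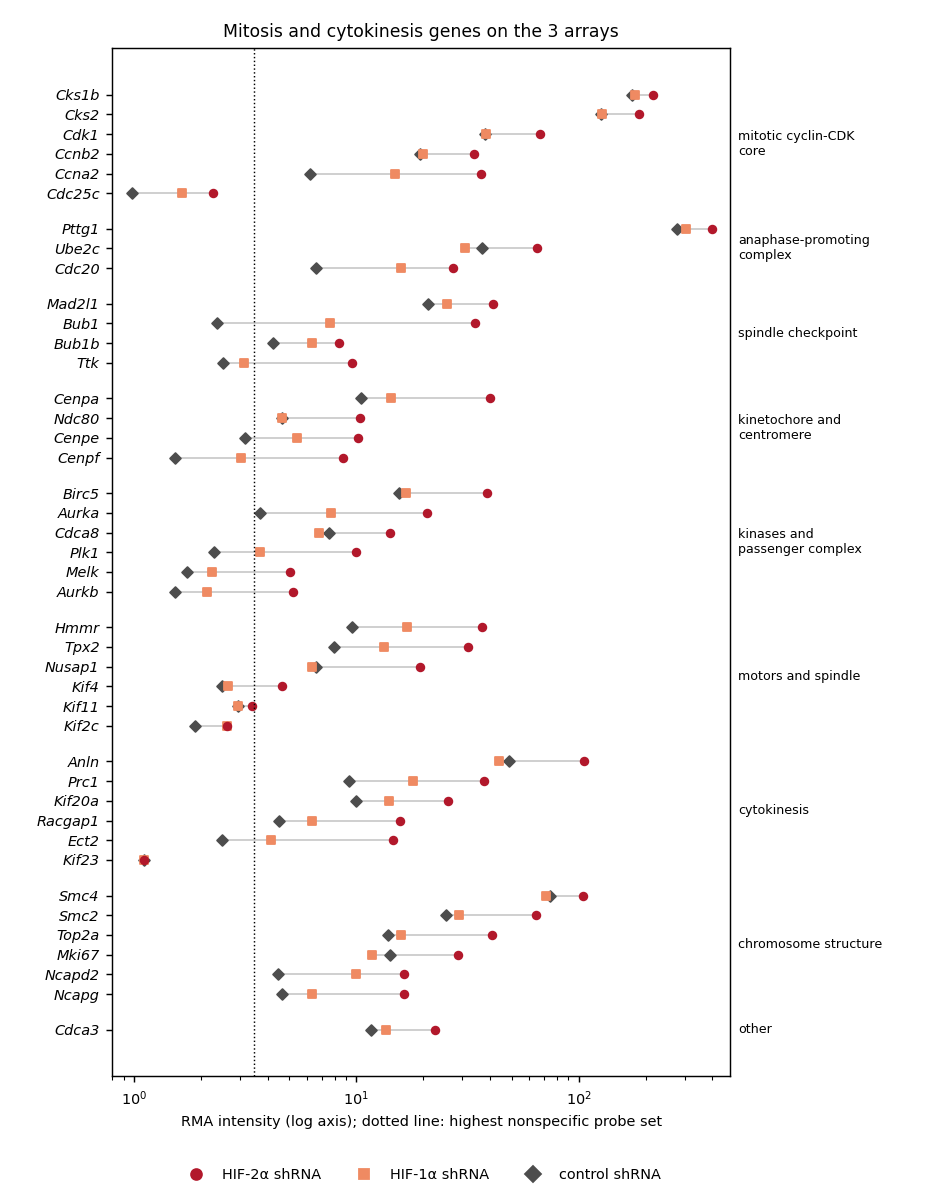
RMA intensity (log axis) of the 42 genes on the HIF-2α-labelled (circles), HIF-1α-labelled (squares) and control (diamonds) arrays, 1 array each, grouped by role; the dotted line marks the nonspecific level of 3.47. The circles lie to the right of the other symbols for 40 of the 42 genes.

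The level of the genes set how much could be read. Of the 42, 38 stood above the nonspecific level on the HIF-2α-labelled array, 33 on the HIF-1α-labelled array and 29 for control, and the medians of the 42 levels were 24.3, 10.9 and 6.60 on the HIF-2α-labelled, HIF-1α-labelled and control arrays. The 29 above it on all 3 arrays include most of the genes described below. Another 4 were above it on 2 arrays, and 5 on the HIF-2α-labelled array alone. The remaining 4 stayed under it everywhere: Cdc25c, the phosphatase that activates Cdk1, Kif11, the motor that pushes spindle poles apart, Kif2c, a microtubule depolymerase, and Kif23, a motor of the central spindle. Kif23 read 1.11 on each array, so nothing can be said of it.

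The 4 genes with the largest differences among those whose promoter is in the RefSeq table were Bub1, Aurka, Ect2 and Cdc20, and the letters just upstream of them show what many promoters of this class share. Cell cycle promoters of this kind are known to carry a CHR element (TTTGAA and its variant form TTCGAA), which the DREAM and B-MYB complexes bind, and CCAAT boxes, which the factor NF-Y binds. The stretches below are from GRCm38.p6 and run 5′ to 3′ on the gene's strand, from 130 bases before the annotated start to 30 bases after it. Capitals mark either form of the CHR letters and the CCAAT letters, on either strand, where a CCAAT on the other strand reads ATTGG.
Bub1 (chr2:127831830-127831989, minus strand): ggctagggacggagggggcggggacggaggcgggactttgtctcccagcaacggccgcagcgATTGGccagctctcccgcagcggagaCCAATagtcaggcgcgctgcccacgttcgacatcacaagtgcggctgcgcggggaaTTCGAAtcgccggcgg
Aurka (chr2:172370541-172370700, minus strand): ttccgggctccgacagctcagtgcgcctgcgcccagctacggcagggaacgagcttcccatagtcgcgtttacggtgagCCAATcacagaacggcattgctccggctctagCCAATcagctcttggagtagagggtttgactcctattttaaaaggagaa
Ect2 (chr3:27153849-27154008, minus strand): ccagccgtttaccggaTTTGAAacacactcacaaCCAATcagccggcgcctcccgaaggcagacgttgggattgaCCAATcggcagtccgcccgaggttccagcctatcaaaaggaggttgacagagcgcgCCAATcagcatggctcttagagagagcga
Cdc20 (chr4:118437314-118437473, minus strand): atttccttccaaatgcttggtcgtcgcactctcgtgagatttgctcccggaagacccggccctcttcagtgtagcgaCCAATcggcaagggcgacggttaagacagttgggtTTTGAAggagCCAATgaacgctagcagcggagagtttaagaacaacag
Each of the 4 holds CCAAT letters upstream of its start. Cdc20 has TTTGAA 18 bases before the start and Ect2 has it 114 bases before, whereas in Bub1 TTCGAA begins at base 15 of the transcript. Just past the printed stretch, TTTGAA begins at base 33 in Aurka and, as a second match, at base 40 in Ect2. The start used for Ect2 is the first of 2 in the table.

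Over the full window, 250 bases before the start to 50 after it, 38 of the 44 genes were in the table. CHR letters in either form, on either strand, were found in 29 of these 38 (76.3%), against 21.7% of the 27025 genes in the table. CCAAT, on either strand, was found in 29 of 38 (76.3%), against 41.1% of all genes, and both kinds together in 26 of 38 (68.4%), against 8.61%. The form TTCGAA, which reads the same on both strands and was counted once, was in 3 of 38 genes (1.80% of all genes). Overlapping matches were each counted. Over all windows, with a gene of several starts counted at each, CHR matches lay near the start, 29 of 43 beginning within 50 bases of it, and the CCAAT matches lay mostly upstream, 57 of 76 within 150 bases before it. Ccna2, Aurkb, Kif20a, Tpx2, Cdc25c and Smc4 were not matched.

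**Figure D2:**
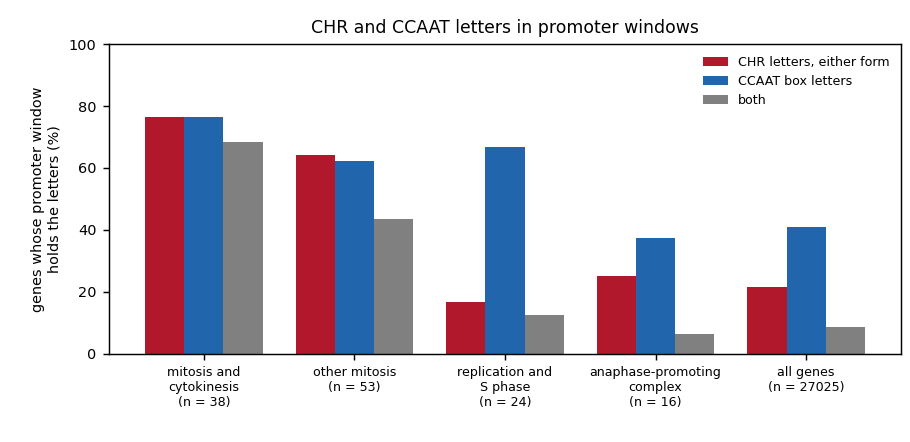
Percentage of genes whose promoter window holds CHR letters, CCAAT, or both, for the mitosis and cytokinesis genes and 4 other sets, with the number of genes with a window under each name. CHR letters are found for 76.3% of mitosis and cytokinesis genes and 21.7% of all genes, whereas the replication set is high for CCAAT (66.7%) but not for CHR letters (16.7%).

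Genes with and without the CHR letters were both higher on the HIF-2α-labelled array. Of 29 measured genes with the letters, 18 were past 2-fold over control (3.96% of all genes) and 18 over the HIF-1α-labelled array (0.614% of all genes), with median log2 differences of 1.34 and 1.11. Of 7 without, 3 and 2 were, with medians of 0.98 and 0.69. The genes without the letters were the brighter ones, at a median mean level of 23.7, against 10.7 for those with them, Kif11, Kif23 and Kif2c included. A match is a run of letters and not a measured binding site.

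Among the cyclins and kinase that start mitosis, Ccna2 (cyclin A2) stood out. It read 36.4 on the HIF-2α-labelled array, 15.0 on the HIF-1α-labelled array and 6.21 for the control array, which is 5.87-fold over control and 2.43-fold over the HIF-1α-labelled array. The values are well apart on all 3 arrays, and its other probe set was lower in level but ordered the same way. Cdk1, the mitotic kinase itself, read 67.4 on the HIF-2α-labelled array, 38.5 on the HIF-1α-labelled array and 38.0 for the control array. Ccnb2 (cyclin B2) followed the same shape, at 33.7 on the HIF-2α-labelled, 19.9 on the HIF-1α-labelled and 19.4 for the control array. For both genes the HIF-1α-labelled and control values nearly coincide, and the excess on the HIF-2α-labelled array stayed under 2-fold, at 1.77-fold for Cdk1 and 1.73-fold for Ccnb2 against control.

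The small Cdk-binding proteins Cks1b and Cks2 were bright everywhere and, by their brightest probe sets, stayed under 1.5-fold in every comparison. Cks1b read 215.3 on the HIF-2α-labelled array, 179.5 on the HIF-1α-labelled array and 174.7 for the control array, and Cks2 read 186.9, 127.7 and 125.6 on the HIF-2α-labelled, HIF-1α-labelled and control arrays. The excess over control was 1.23-fold for Cks1b and 1.49-fold for Cks2. Their other probe sets also had the highest value on the HIF-2α-labelled array. That of Cks1b read 99.4, 78.4 and 59.1 on the HIF-2α-labelled, HIF-1α-labelled and control arrays. Its log2 difference from control was 0.75, which is past 1.5-fold.

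The genes that act at the anaphase-promoting complex spanned a wide range. Cdc20, its mitotic co-activator, read 27.3 on the HIF-2α-labelled array, 15.8 on the HIF-1α-labelled array and 6.59 for the control array, 4.15-fold over control. Ube2c, the ubiquitin-conjugating enzyme that serves the complex, read 65.0 on the HIF-2α-labelled array, 30.9 on the HIF-1α-labelled array and 36.6 for the control array. It was thus 2.10-fold over the HIF-1α-labelled array but 1.77-fold over control, with the lowest value on the HIF-1α-labelled array. Pttg1 (securin), the inhibitor of separase that the complex destroys, was the brightest gene of all 42, at 398.9, 304.9 and 276.1 on the HIF-2α-labelled, HIF-1α-labelled and control arrays, 1.45-fold over control.

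The spindle checkpoint held the gene with the largest difference. Bub1, a checkpoint kinase at the kinetochore, read 34.3 on the HIF-2α-labelled array, 7.63 on the HIF-1α-labelled array and 2.36 for the control array, and there it lay under the nonspecific level. It was at least 9.87-fold over control and 4.49-fold over the HIF-1α-labelled array. This rests on 1 probe set, because the other for Bub1 was under the nonspecific level on every array. That probe set read 1.05, 1.05 and 1.43 on the HIF-2α-labelled, HIF-1α-labelled and control arrays. Ttk, the kinase (Mps1) that starts checkpoint signalling, read 9.60 on the HIF-2α-labelled array and was under the level on the HIF-1α-labelled array, at 3.13, and on the control array, at 2.52, so it was at least 2.77-fold higher. Mad2l1, which forms the inhibitor of Cdc20, and Bub1b (BubR1), its partner, lay just under 2-fold against control by the probe sets used. Mad2l1 read 41.4 on the HIF-2α-labelled array, 25.7 on the HIF-1α-labelled array and 20.9 for the control array. Bub1b read 8.37, 6.30 and 4.23 on the HIF-2α-labelled, HIF-1α-labelled and control arrays, and both came to 1.98-fold over control. Another Bub1b probe set read 8.61, 4.14 and 3.07 in that order of arrays, the last under the nonspecific level. It was past 2-fold over control, at a log2 difference of at least 1.31.

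By their brightest probe sets, all 4 genes of the kinetochore and centromere that had one stood 2-fold or more over control on the HIF-2α-labelled array. Cenpa, the histone H3 variant that marks centromeres, read 39.8 on the HIF-2α-labelled array, 14.3 on the HIF-1α-labelled array and 10.5 for the control array, 3.78-fold over control and 2.78-fold over the HIF-1α-labelled array. Cenpe, a kinetochore motor, read 10.2 on the HIF-2α-labelled, 5.42 on the HIF-1α-labelled and 3.17 for the control array, the last under the nonspecific level. The other Cenpe probe set was above that level on every array, at 8.36, 4.64 and 4.57 in that order. It was under 2-fold over control, at a log2 difference of 0.87. Ndc80, the subunit that grips microtubules, read 10.4 on the HIF-2α-labelled array and 4.64 on each of the others. Cenpf, a large coiled-coil protein of the outer kinetochore, was above the nonspecific level on the HIF-2α-labelled array alone, at 8.76, against 3.02 on the HIF-1α-labelled array and 1.53 for the control array. Near the nonspecific level the exact fold is not meaningful, but Cenpa, Cenpe and Ndc80 had their highest value on the HIF-2α-labelled array. For Cenpf the same follows from its passing the level there alone, so it adds nothing on direction.

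Mitotic kinases and the chromosomal passenger complex, which corrects faulty attachments and positions the cleavage furrow, varied in level more than in direction. Aurka, the centrosomal Aurora kinase, read 20.8 on the HIF-2α-labelled array, 7.70 on the HIF-1α-labelled array and 3.71 for the control array, 5.62-fold over control and 2.71-fold over the HIF-1α-labelled array. Plk1, the Polo kinase, read 9.94 on the HIF-2α-labelled array, 3.68 on the HIF-1α-labelled array and 2.29 for the control array, at least 2.86-fold over control. Birc5 (survivin), a passenger subunit, read 38.7 on the HIF-2α-labelled array against 16.7 on the HIF-1α-labelled array and 15.6 for the control array, values that put the last pair together. Cdca8 (borealin), another subunit, read 14.2, 6.80 and 7.53 on the HIF-2α-labelled, HIF-1α-labelled and control arrays and was 2.09-fold over the HIF-1α-labelled array. Aurkb, the kinase of the complex, and Melk, a kinase found in dividing cells, passed the nonspecific level on the HIF-2α-labelled array alone. Aurkb read 5.22 on the HIF-2α-labelled, 2.14 on the HIF-1α-labelled and 1.53 for the control array, and Melk read 5.05, 2.23 and 1.74 in that order of arrays, so a difference past 2-fold cannot be shown for either.

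Of the motors and spindle proteins that could be read, 3 were past 2-fold over each of the other arrays. Hmmr, a microtubule-binding protein of the spindle, read 36.7 on the HIF-2α-labelled array, 16.9 on the HIF-1α-labelled array and 9.62 for the control array. Tpx2, the activator of Aurka on the spindle, read 31.9, 13.4 and 7.97 on the HIF-2α-labelled, HIF-1α-labelled and control arrays, 4.0-fold over control. Nusap1, which bundles microtubules near chromosomes, had a different shape: 19.4 on the HIF-2α-labelled array, 6.30 on the HIF-1α-labelled array and 6.61 for the control array. Its fold over the HIF-1α-labelled array, 3.08, was the third largest of the 42, after those of Bub1 and Ect2. Kif4, a chromosome-arm motor, passed the nonspecific level on the HIF-2α-labelled array alone, at 4.64, against 2.66 on the HIF-1α-labelled and 2.50 for the control array.

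Cytokinesis genes, which build the midzone and the contractile ring, were past 2-fold over control in 5 of 6 cases, all but Kif23. Ect2, the exchange factor that switches on RhoA at the furrow, read 14.7 on the HIF-2α-labelled array, 4.14 on the HIF-1α-labelled array and 2.50 for the control array. It was at least 4.23-fold over control and 3.54-fold over the HIF-1α-labelled array. Racgap1, its partner in the centralspindlin complex, read 15.7, 6.30 and 4.48 on the HIF-2α-labelled, HIF-1α-labelled and control arrays. Prc1, which crosslinks midzone microtubules, read 37.4 on the HIF-2α-labelled array, 17.9 on the HIF-1α-labelled array and 9.27 for the control array, 4.03-fold over control. Kif20a, a midzone motor, was 2.59-fold over control, at 25.8 on the HIF-2α-labelled array, 14.1 on the HIF-1α-labelled array and 9.99 for the control array. Anln (anillin), a scaffold of the ring, was far brighter, at 105.7 on the HIF-2α-labelled array, 43.9 on the HIF-1α-labelled array and 48.8 for the control array. Like Nusap1, Ube2c, Cdca8, Mki67 and Smc4, each by its brightest probe set, it was lowest on the HIF-1α-labelled array. The other probe sets of Smc4 were lowest on the control array.

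Genes of chromosome structure included Top2a, the topoisomerase that untangles sister chromatids, at 40.9 on the HIF-2α-labelled array, 15.9 on the HIF-1α-labelled array and 13.9 for the control array. That is 2.94-fold over control and 2.57-fold over the HIF-1α-labelled array. Mki67 (Ki-67), the usual marker of cycling cells, read 28.6 on the HIF-2α-labelled array, 11.8 on the HIF-1α-labelled array and 14.2 for the control array, and at 2.02-fold over control it lay only just past the threshold. The condensin genes, whose products compact chromosomes, did not differ alike. Ncapd2 was 3.67-fold and Ncapg 3.54-fold over control, with HIF-2α-labelled values of 16.4 for each, HIF-1α-labelled values of 10.0 for Ncapd2 and 6.30 for Ncapg, and control values of 4.46 for Ncapd2 and 4.64 for Ncapg. Smc2 read 64.6 on the HIF-2α-labelled array, 29.0 on the HIF-1α-labelled array and 25.3 for the control array, 2.55-fold over control. Smc4, its partner, read 104.4, 71.0 and 74.2 on the HIF-2α-labelled, HIF-1α-labelled and control arrays, 1.41-fold. The other probe sets of Smc4 gave larger log2 differences from control, 0.84 and 0.79, still under 2-fold. Cdca3, which marks the mitosis inhibitor Wee1 for destruction, was 1.95-fold over control, at 22.7 on the HIF-2α-labelled array, 13.7 on the HIF-1α-labelled array and 11.6 for the control array.

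**Figure D3:**
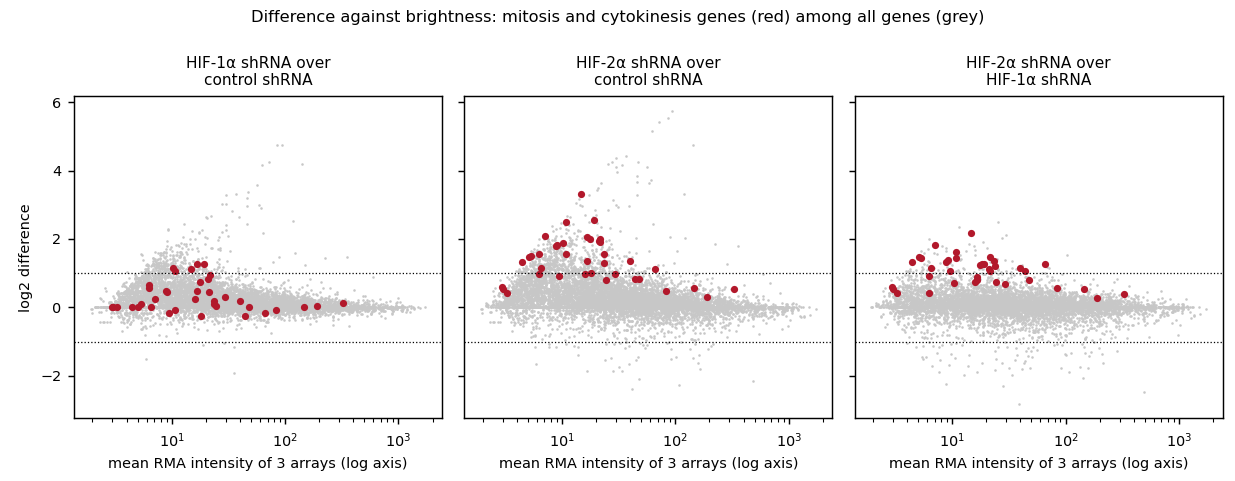
Log2 difference (vertical axis) against mean RMA intensity of the 3 arrays (log axis) in the 3 comparisons, for all genes above the nonspecific level on at least 1 array (grey) and the 38 mitosis and cytokinesis genes among them (red); dotted lines mark 2-fold. Dim genes as a whole lie above 0 in the comparisons with control. Against the HIF-1α-labelled array the median of the grey points is 0, with many values equal, and 22 red points lie above the 2-fold line.

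Brightness bears on how these counts read, because dim genes in general read higher on both hairpin arrays than on control. Among the 2839 genes with a mean between the nonspecific level and 16, the median log2 difference was 0.37 for the HIF-2α-labelled array over control and 16.3% were at least 2-fold higher. The 15 mitosis and cytokinesis genes in that range had a median of 1.55, and 12 were past 2-fold. From 16 to 64, 11 of 15 were past 2-fold, against 5.88% of genes of that brightness, and from 64 up 1 of 5, against 0.674%. Between the HIF-2α-labelled and HIF-1α-labelled arrays the medians were 0.00 in each range, but 50.4% of all genes had equal values on the 2. Of all 17097 genes, 3986 were higher on the HIF-2α-labelled array and 2187 lower, so a lean the same way was present. In the dim range 65 genes were at least 2-fold higher and 24 lower. Of the mitosis and cytokinesis genes, 11 of 15 dim ones were past 2-fold in this comparison, against 2.29% of all genes in the range. From 16 to 64 the count was 10 of 15, against 1.05%, and from 64 up 1 of 5, against 0.198%.

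Limiting the count to genes read above the nonspecific level on both arrays, a choice made after seeing the data, left 18 of 29 past 2-fold over control (6.42% of such genes) and 20 of 33 over the HIF-1α-labelled array (1.09%). For the HIF-1α-labelled array over control it left 4 of 29 (3.39%). The median log2 difference over all 42 genes was 1.23 against control and 1.06 against the HIF-1α-labelled array. Over all 17097 genes both medians were 0.00, but most of these genes, 9543 and 10924, had no difference, so those medians could only be 0. Among genes above the level on both arrays, the median against control was 1.31 for the 29 and 0.12 for all such genes. Against the HIF-1α-labelled array it was 1.11 for the 33 and 0.00 for all such genes. Across the 38 genes above the level on at least 1 array, the Spearman correlation between control level and the difference from control was −0.39, given as a description, since the control value enters both.

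The HIF-1α-labelled array differed less from control. The 5 genes past 2-fold were Ccna2 (2.42-fold), Cdc20 (2.40-fold), Ncapd2 (2.24-fold, 10.0 against 4.46 for control), Bub1 (at least 2.20-fold) and Aurka (2.08-fold), and all 5 were dim on the control array, at 6.59 or less. In the range from the nonspecific level to 16, the mitosis and cytokinesis genes had a median log2 difference of 0.25 and all genes one of 0.29, and 3 of 15 were past 2-fold, against 9.26% of genes of that brightness. From 16 to 64 the count was 2 of 15, against 2.54%, and from 64 up 0 of 5, against 0.436%. The lowest log2 differences were −0.26 for Mki67 and −0.24 for Ube2c. Over all 42 the median was 0.09, with 26 above 0, 6 below and 10 equal. After cyclic loess scaling 2 genes were past 2-fold and 11 of 42 lay below 0, and with the median of well-read genes made equal between arrays 3 were past 2-fold and 15 lay below 0.

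Other probe sets of the same genes gave a second reading. For 14 genes at least 2 probe sets stood above the nonspecific level on some array, and these had 17 probe sets besides the brightest. Of the 17, 4 passed that level on the HIF-2α-labelled array alone (for Aurkb, Cdca8, Hmmr and Ncapg), so that being higher there was fixed by the filter, and they are left out of the counts that follow, a choice made after seeing the data. The other 13 were all higher on the HIF-2α-labelled array than on control, 5 of them 2-fold or more, and their median log2 difference was 0.87. The same 13 were higher than on the HIF-1α-labelled array, 3 of them 2-fold or more, with a median of 0.85. With the 31 probe sets of the 14 genes above the nonspecific level on some array, the pooled SD within a gene was 0.39 against control. Against the HIF-1α-labelled array it was 0.27. This spread is between probes on the same pair of arrays, not between cultures. Averaging all probe sets of each gene, including those near background, gave 11 genes in place of 22 past 2-fold over the HIF-1α-labelled array.

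**Figure D4:**
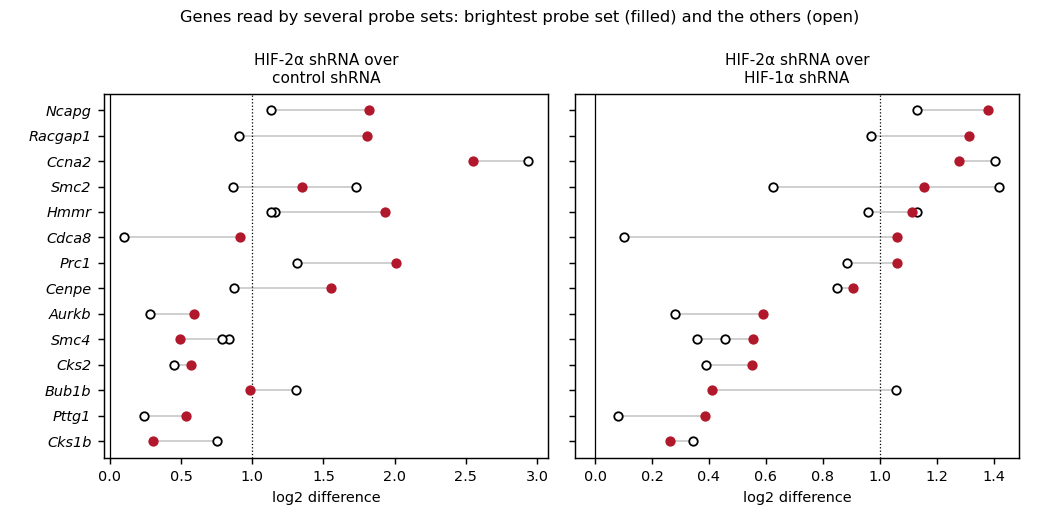
Log2 difference of each probe set for the 14 genes with at least 2 probe sets above the nonspecific level, the brightest filled and the 17 others open, for the HIF-2α-labelled array over control (left) and over the HIF-1α-labelled array (right); the dotted line marks 2-fold. Of the 17 open points, 4 passed the level on the HIF-2α-labelled array alone and could only lie right of 0; the other 13 also lie right of 0, with 5 past 2-fold on the left and 3 on the right.

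Other cell cycle genes were read from lists of pathway neighbours. Of 62 further mitosis genes 45 were above the nonspecific level on some array. On the HIF-2α-labelled array, 17 of the 62 were past 2-fold over control (3.96% of all genes) and none was 2-fold lower (0.269%). Cdca5 (sororin), which protects cohesion between sisters, had the largest difference, at 31.2 on the HIF-2α-labelled array, 8.60 on the HIF-1α-labelled array and 2.78 for the control array, at least 8.99-fold over control. Cep55, which directs the final cut between daughter cells, was 4.30-fold over control, at 39.9 on the HIF-2α-labelled array against 9.27 for control, and Ckap2l, a spindle protein, 4.19-fold, at 19.9 on the HIF-2α-labelled array against 4.75 for control. Over the HIF-1α-labelled array 13 of the 62 were past 2-fold (0.614% of all genes) and none was 2-fold lower (0.433%). The 13 were led by Cdca5 (3.63-fold), Cep55 (3.32-fold) and Plk4 (3.30-fold), the kinase that starts centriole duplication. The HIF-1α-labelled array had 2 of the 62 past 2-fold over control, Cdca5 and Ckap2l. That is 3.23%, near the 2.1% of all genes.

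Genes of DNA replication and S phase were also higher on the HIF-2α-labelled array. Of 29, 15 were at least 2-fold over control (3.96% of all genes) and 5 over the HIF-1α-labelled array (0.614%). No gene of the 29 was 2-fold lower (0.269% and 0.433% of all genes). Mcm2 and Mcm5, subunits of the replicative helicase, were at least 4.88-fold and at least 4.01-fold over control, and Mcm7, another, was 3.58-fold, at 36.9 on the HIF-2α-labelled array against 10.3 for control. The median log2 difference of the 29 genes was 1.03 over control and 0.65 over the HIF-1α-labelled array. The 5 included Mcm5 (3.0-fold), Mcm2 (2.66-fold) and Mcm6 (2.23-fold). On the HIF-1α-labelled array 1 of 29 was past 2-fold over control, 3.45% and near the 2.1% of all genes. It was Rpa2, a subunit that coats single-stranded DNA, at 9.44 against 4.64 for control. Of all 105 genes past 2-fold over the HIF-1α-labelled array, 22 were mitosis and cytokinesis genes, 13 further mitosis genes and 5 replication genes.

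Lists of the standing machinery of division differed from one another. Those of the anaphase-promoting complex and of G1 genes held few or no genes past 2-fold, and the cohesin list held a larger share. Of 15 genes for the anaphase-promoting complex and its regulators 1 was past 2-fold over control, Fbxo5 (Emi1), an inhibitor of the complex that peaks before mitosis, at 16.9 on the HIF-2α-labelled array, 8.26 on the HIF-1α-labelled array and 3.98 for the control array. That is 6.67% of the list, beside 3.96% of all genes, and the list's median log2 difference was 0.07. Of 8 cohesin genes 2 were past 2-fold over control, Pds5a at 2.29-fold and Pds5b at 2.24-fold. That is 25% of that list, beside 3.96% of all genes, a share near the 27.4% of the further mitosis genes. The same 2 were past 2-fold on the HIF-1α-labelled array over control, 25% of the list beside 2.1% of all genes. Over the HIF-1α-labelled array 0 of 8 were (0.614% of all genes). The HIF-1α-labelled array had 14.0 for Pds5a and 11.0 for Pds5b, against 14.1 and 11.4 on the HIF-2α-labelled array. None of 13 G1 cyclins, their kinases and CDK inhibitors was past 2-fold in any comparison. Cdkn1a (p21), the main inhibitor downstream of p53, read 436.8 on the HIF-2α-labelled array, 417.3 on the HIF-1α-labelled array and 441.6 for the control array.

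Factors that control the mitotic genes gave a mixed picture. Foxm1 and Mybl2 (B-MYB), which activate them, were under the nonspecific level on every array, so their level cannot be compared. Of 21 such factors and DREAM subunits, 4 on the HIF-2α-labelled array were past 2-fold over control (3.96% of all genes). Only 1 of the 21, E2f8, was past it over the HIF-1α-labelled array (0.614% of all genes). E2f8 passed the nonspecific level on the HIF-2α-labelled array alone, so it adds nothing on direction. Its values were 9.12, 2.49 and 1.48 on the HIF-2α-labelled, HIF-1α-labelled and control arrays. Rbl1 (p107), a pocket protein of DREAM, was at least 3.96-fold higher, at 13.8 on the HIF-2α-labelled array against 1.35 for control, E2f8, a repressor of the E2F family, at least 2.63-fold, Rbbp4, a chromatin subunit, 2.46-fold and Lin54, the subunit that reads the CHR element, 2.24-fold. Among 8 regulators of mitotic entry 1 was past 2-fold over control (3.96% of all genes), Wee1, the kinase that restrains Cdk1. Wee1 was 3.74-fold over control, at 17.3 on the HIF-2α-labelled array against 4.64 for control. Over the HIF-1α-labelled array 0 of the 8 were past 2-fold (0.614% of all genes). On the HIF-1α-labelled array too, Rbl1 (at least 2.15-fold) and Wee1 (2.16-fold) were past 2-fold over control. Each was the only 1 of its list, of 21 and of 8, beside 2.1% of all genes.

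**Figure D5:**
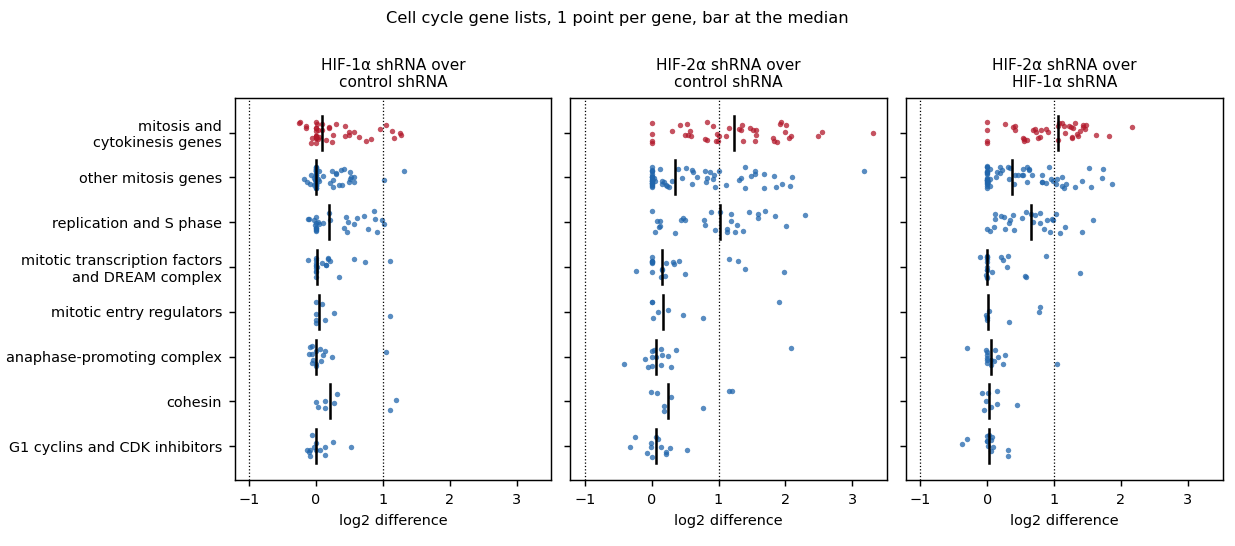
Log2 difference of every gene of 8 cell cycle lists in the 3 comparisons, 1 point per gene with a bar at the list's median and dotted lines at 2-fold; genes under the nonspecific level on both arrays stand at 0. Against the HIF-1α-labelled array the median of the mitosis and cytokinesis genes is 1.06 and that of the replication genes 0.65, whereas the median of the G1 genes is 0.02.

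Markers of other cells were near background. Only markers with a probe set annotated to 1 gene were counted. These were 11 of 12 listed for haematopoietic cells and macrophages, 6 of 8 for smooth muscle and pericytes and 3 of 5 for erythroid cells. For mesenchymal progenitors they were 11 of 12, with Ly6a missing. Of 11 haematopoietic and macrophage markers 2 were above the nonspecific level on the HIF-2α-labelled array and 1 on each of the others, with summed levels of 111.1, 101.5 and 107.1 on the HIF-2α-labelled, HIF-1α-labelled and control arrays. Nearly all of that sum was Cd14, a lipopolysaccharide receptor, at 93.2, 87.8 and 93.4 on the HIF-2α-labelled, HIF-1α-labelled and control arrays, whereas Ptprc (CD45), which defines blood cells, read 1.05 on every array. Cd68, a macrophage marker, was highest on the HIF-2α-labelled array, at 7.24, against 3.02 and 1.59 on the HIF-1α-labelled and control arrays. Of 8 endothelial markers 1 passed the level on each array, Egfl7, and none of 3 erythroid markers did. Of 6 smooth muscle and pericyte markers 1 passed it, Acta2, at 232.9 on the HIF-2α-labelled array, 428.7 on the HIF-1α-labelled array and 373.6 for the control array. For the labelled cell type 10 of 11 mesenchymal progenitor markers passed it on each array, all but Nes, with summed levels of 2595, 2776 and 2629 on the HIF-2α-labelled, HIF-1α-labelled and control arrays. On the HIF-2α-labelled array 4 of the 11 were higher than on control, 5 lower and 2 equal, none by 2-fold, and 3 were higher than on the HIF-1α-labelled array, 7 lower and 1 equal. The largest difference from control was that of Thy1, a surface marker of stromal cells, at 6.72 on the HIF-2α-labelled array, 12.4 on the HIF-1α-labelled array and 13.1 for the control array, 1.94-fold lower. Pdgfrb, a growth factor receptor, was 2.09-fold lower than on the HIF-1α-labelled array, at 6.95 against 14.6, with 7.88 for the control array. Pdgfra, a receptor by which such cells are commonly sorted, read 47.9, 51.6 and 38.2 on the HIF-2α-labelled, HIF-1α-labelled and control arrays. The part of these marker differences in the results was not tested.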

How the data were processed

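Gene expression was measured on 3 single-colour Affymetrix arrays of biotin-labelled cRNA, per the labels' protocols. The authors deposited RMA values, per the submitters' processing notes, as linear intensities. For the RMA version, settings and annotation, the entry is: not given in the sources used here. Each array took its group from its title. RMA as commonly run makes array distributions alike and summarises each probe set over all arrays, which can shrink differences and make values equal.

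Of 45141 probe sets, 104 were controls and 28898 were annotated to 1 gene, 28689 of them matched by Entrez identifier to RefSeq genes of GRCm38.p6. The 551 with several genes and 15588 not listed were left out. A gene is its probe set of highest mean (17097 genes). Log2 differences were taken after raising values under 3.47, the highest of 23 nonspecific probe sets, to that level. A gene was counted at 2-fold. With 1 array per group no test was run. Counting was tested on simulated data without noise, with changes in bright genes only, so the raising of dim values was not tried. No interval is given, since the number of arrays limits the precision. Genes described are all those above the nonspecific level on at least 1 array, by role, plus up to 3 past 2-fold from each end of other lists. Lin54, Foxm1, Mybl2, Cdkn1a and the cell markers named, other than Cd68 and Pdgfrb, lie outside that rule and were added after their values were seen. The gene, list and promoter choices were made with earlier results of these data known. Promoters came from RefSeq. Cyclic loess used limma 3.58.1 in R 4.3.3, and the rest pandas 2.3.3 in Python 3.11.15.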

Additional observations from a re-analysis of the deposited data

How the results depend on the processing

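No alternative reversed a count or median of the mitosis and cytokinesis genes in any of the 3 comparisons. For the HIF-2α-labelled array over control, the count of 24 genes became 5, and the median log2 difference of 1.34 over the 38 readable genes became 0.59, with 16 added before log2; 12 of 20 were past 2-fold at a mean of at least 16. Over the HIF-1α-labelled array, the count of 22 and median of 1.09 became 2 and 0.47 with 16 added, 11 and 0.80 with the mean of all probe sets, and 11 of 20 genes at a mean of at least 16. Adding 16 shrinks dim genes by construction, and a minimum leaves fewer genes. For the HIF-1α-labelled array over control the count of 5 became 0 with 16 added, 2 after cyclic loess, 3 with medians made equal between arrays, 2 at a mean of at least 16 and 9 at 1.5-fold. Making medians equal put the median log2 difference of the 8917 readable genes at −0.08 for the HIF-2α-labelled array over control, where it was 0.14 in the authors' scaling, and there 21 genes were past 2-fold, 22 after cyclic loess. Values as deposited gave 27 genes over control and 24 over the HIF-1α-labelled array. Among the other probe sets, those above the nonspecific level on an array besides the HIF-2α-labelled one gave 3 in place of 5 past 2-fold over the HIF-1α-labelled array, and 5 in place of 7 over control. This, and limiting or widening the genes by the nonspecific level, were chosen after seeing the data. No paired analysis was possible because each group has 1 array, and for the same reason no array could be left out.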

Other observations

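Further genes of division stood among the 105 past 2-fold on the HIF-2α-labelled over the HIF-1α-labelled array, outside every list used; they were picked after their values were seen. Hells, a chromatin remodeller of dividing cells, read 21.9 on the HIF-2α-labelled array, 8.10 on the HIF-1α-labelled array and 3.42 for the control array. Haus6, a subunit of the complex that branches spindle microtubules, read 23.2, 8.05 and 3.74 on the HIF-2α-labelled, HIF-1α-labelled and control arrays. Pclaf, a partner of the replication clamp PCNA, read 70.1 on the HIF-2α-labelled array, 29.9 on the HIF-1α-labelled array and 25.1 for the control array. Dbf4, the activator of the kinase that fires replication origins, read 42.3, 20.7 and 17.4 on the HIF-2α-labelled, HIF-1α-labelled and control arrays. Like Birc5 and Top2a, Pclaf and Dbf4 had HIF-1α-labelled and control values close together, whereas Hells and Haus6 had them well apart.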
